A study of Schizosaccharomyces pombe with 20 samples.

Results

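In the fission yeast Schizosaccharomyces pombe, 43 introns are described here, each with a raised ratio of unspliced to spliced RNA in cells that lack pwi1 and a low ratio in most of the other deletion strains of the same series. They lay in 42 genes and were chosen by a fixed rule from the 4673 introns with both an intron probe and an exon–exon junction probe. The ratio of an intron was its intron probe minus its junction probe on the same array, in log2 units of deletion strain over wild type, so that 1.0 is a 2-fold excess of pre-mRNA over mature mRNA relative to wild type. An intron was taken when its ratio was 1.0 or more on both Δpwi1 arrays and when the median over the arrays of all other strains, at least 8 of them measured, was under 0.5. Because these values chose the introns, the ratios below are a description and no test was made on them.

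RNA of the Δpwi1 strain (ΔSPCC825.05c-KanR) and of 11 other KanR deletion strains was hybridised on 2-colour splicing-sensitive arrays against wild-type RNA. The labels name 1 wild type, ED666, for all arrays, and give all strains as from Bioneer and grown in YES medium to mid-log phase. The Δpwi1 strain had 2 arrays from separately grown cultures, and the other strains had 18. A pair of arrays was labelled smd3, aar2, SPAC20H4.06c, ctr1, SPAC18G6.13, ppn1 and ssu72, and 1 array each was labelled SPCC162.01c, ash2, swd1 and pht1. Each deletion strain was 1 strain of a collection, and whether its readings come from the deletion or from another feature of that strain cannot be told apart here.

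Pwi1 is the fission yeast relative of human SRRM1, a splicing coactivator with a PWI domain and stretches rich in arginine and serine. In human cells SRRM1 takes part in bridging proteins bound to exonic enhancers with the core spliceosome. Smd3 is a subunit of the Sm ring on the spliceosomal snRNPs and Aar2 acts in the maturation of the U5 snRNP, so both belong to the general splicing machinery. Fission yeast introns are short, and many genes carry several of them, so 1 intron can be set against its neighbours in the same transcript.

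The exon probe of pwi1 read -2.81 and -4.04 on the Δpwi1 arrays, against -1.38 to 0.39 on the arrays of other strains. Δpwi1 replicate 1 stood apart in other genes: ura4 read -0.45 there against -6.49 on replicate 2, and mat3-Mc read -0.40 against -4.32. The smd3 replicate 1 array resembled it, with mat3-Mc at 0.07 and no value for ura4. The Δpwi1 ratio of each chosen intron is therefore given for each replicate, while some summaries and junction values below are means of both. On all other arrays ura4 read from -7.07 to -4.36. Whether all arrays had the same reference strain, as labelled, was not tested, so the Δpwi1 replicates may differ in their reference. On 6 arrays the deleted gene's exon probe was not below that of all other strains, namely both labelled smd3, both labelled SPAC18G6.13, SPCC162.01c and ctr1 replicate 2. Values were present for 2213 and 2416 intron probes of the 4673 introns in Δpwi1, and for 695 to 4648 over all 20 arrays. Across the 1629 introns with both Δpwi1 values, the replicates had a Pearson r of 0.75 for the ratio, 0.74 for intron probes and 0.55 for junction probes; these points share 2 hybridisations and are not independent.

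Of those 1629 introns, 190 (11.7%) had a ratio of 1.0 or more on both Δpwi1 arrays. Of these 190, 43 had a median under 0.5 in the other strains, 137 had a higher median there, and 10 had fewer than 8 other values. The whole rule was thus met by 43 of the 1548 introns with both Δpwi1 values and at least 8 others (2.78%). The 43 introns had a median ratio of 1.77 on Δpwi1 replicate 1 and 1.48 on replicate 2, against 0.26 and 0.58 over all 1629 introns. Their means of both arrays ran from 1.05 to 5.51. Of the 43, 15 were above 2.0 on both arrays, and 23 had a lower value under 1.5, so a small set of high introns stood above a larger set near the threshold. With the ratio of each array centred on its median over all introns, 36 introns met the rule, and 20 of the 43 were among them.

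**Figure D1:**
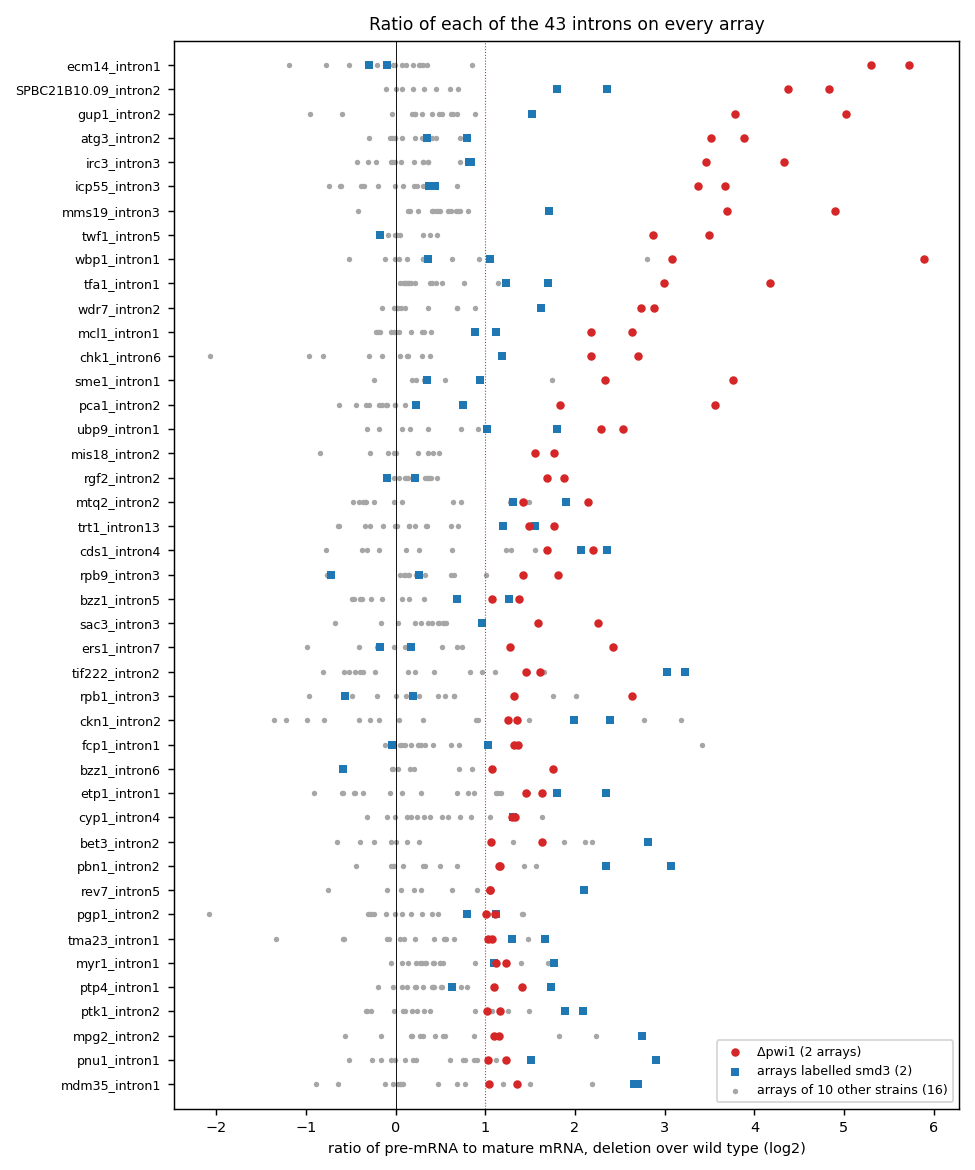
Ratio of pre-mRNA to mature mRNA (log2, deletion over wild type) of each of the 43 introns, one row each, on both Δpwi1 arrays (red), the 2 arrays labelled smd3 (blue) and the 16 arrays of the other strains (grey), ordered by the gap between the lower Δpwi1 value and the median of the others; the dotted line is the threshold of 1.0. In the upper rows the red points stand clear of all others, up to 5.72 for ecm14_intron1, and in the lower rows they lie among them.

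Both Δpwi1 values lay above every other array in 22 of the 43 introns, against 33 of the 1548 (2.13%) and 30 of the 180 that were at 1.0 or more with 8 other values (16.7%). The other 21 overlapped with at least 1 other array. Means in the 22 ran from 1.42 to 5.51 with a median of 2.93, and in the 21 from 1.05 to 1.98 with a median of 1.25. No other array was at 1.0 or more for 11 introns, against 20.6% of the 1548 and 6.67% of the 180. For 22 introns the only arrays of other strains at 1.0 or more, if any, were those labelled smd3, against 34% of the 1548. All these shares over the 1548 include introns that were low in Δpwi1 too.

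The highest ratios belonged to genes of varied function. In ecm14 (SPBC337.07c), a gene of the carboxypeptidase family, intron 1 read 5.72 and 5.30 in Δpwi1, against a lowest value of -1.19, a median of -0.02 and a highest value of 0.85 on 18 other arrays. This was the widest gap of all 43, and the smd3 arrays, at -0.30 and -0.10, lay on the other side of 0. Intron 2 of SPBC21B10.09 read 4.83 and 4.38 in Δpwi1, against -0.10 to 2.36 with a median of 0.38 on 10 other arrays, where both smd3 arrays, at 1.80 and 2.36, were the highest. In gup1 (SPAC24H6.01c), whose budding yeast relative is a membrane-bound acyltransferase, intron 2 read 5.03 and 3.78, against -0.96 to 1.52 with a median of 0.41 on 15 other arrays. Δpwi1 did not overlap with any other strain in these 3 introns.

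The next introns are given by the role of their gene, an order chosen after the values were seen and not a tested grouping. Irc3 is a mitochondrial DNA helicase in budding yeast, and irc3_intron3 (SPBC11C11.11c) read 4.33 and 3.46 in Δpwi1, against -0.44 to 0.83 with a median of 0.20 on 15 other arrays. Icp55 is a mitochondrial aminopeptidase, and icp55_intron3 (SPAC12B10.05) read 3.38 and 3.67, against -0.75 to 0.68 with a median of 0.15 on 16. No other array reached 1.0 for either. In atg3 (SPBC3B9.06c), the E2-like enzyme that conjugates Atg8 to lipid in autophagy, intron 2 read 3.88 and 3.52, against -0.30 to 0.79 with a median of 0.21 on 13 other arrays. The metacaspase gene pca1 (SPCC1840.04) had 3.56 and 1.83 at intron 2, against -0.63 to 0.75 with a median of -0.11 on 13. The deubiquitinase gene ubp9 (SPBC1703.12) had 2.54 and 2.29 at intron 1, against -0.32 to 1.80 with a median of 0.36 on 9. Replicates differed most for pca1 in this set, yet its lower value was still above all others.

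Mms19 acts in the assembly of iron–sulphur proteins used in DNA metabolism, and mms19_intron3 (SPAC1071.02) read 4.90 and 3.69 in Δpwi1, against -0.43 to 1.71 with a median of 0.48 on 16 other arrays. The TFIIE subunit gene tfa1 (SPAC458.07) had 4.17 and 2.99 at intron 1, against 0.04 to 1.69 with a median of 0.22 on 17. Both smd3 arrays, at 1.23 and 1.69, and ctr1 replicate 1, at 1.14, were the only others above 1.0 for tfa1. Mcl1, a replication factor related to budding yeast Ctf4, had 2.63 and 2.18 at intron 1 (SPAPB1E7.02c), against -0.22 to 1.11 with a median of 0.04 on 13 other arrays. The checkpoint kinase gene chk1 (SPCC1259.13) had 2.70 and 2.18 at intron 6, against -2.08 to 1.19 with a median of 0.04 on 11. A second checkpoint kinase gene, cds1 (SPCC18B5.11c), had only 1.69 and 2.19 at intron 4 and overlapped with others, which ran from -0.78 to 2.36 with a median of 0.44 on 12. For cds1, 5 of those 12 arrays were at 1.0 or more, 2 of them labelled smd3.

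The splicing factor list held 2 members. Sme1 is the E subunit of the Sm ring, and sme1_intron1 (SPBC11G11.06c) read 3.76 and 2.33 in Δpwi1, against -0.25 to 1.74 with a median of 0.35 on 9 other arrays. Intron 4 of the cyclophilin gene cyp1 (SPAC57A10.03) read 1.33 and 1.29, against -0.32 to 1.63 with a median of 0.39 on 15, so that of these 2 genes only sme1 was clear of the other strains. In the secretory pathway, wbp1 (SPCC338.15), a subunit of the oligosaccharyltransferase, read 5.89 and 3.08 at intron 1, against -0.52 to 2.80 with a median of 0.30 on 13 other arrays. The 2.80 came from SPAC18G6.13 replicate 1, whose replicate 2 read 0.30. Intron 2 of bet3 (SPAC644.18c), a subunit of the TRAPP complex, read 1.63 and 1.06, against -0.65 to 2.81 with a median of 0.19 on 12. It was at 1.0 or more on 5 of those 12 and thus among the less separate introns.

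The twinfilin gene twf1 (SPCC126.06), whose product binds actin, read 3.49 and 2.87 at intron 5, against -0.18 to 0.46 with a median of 0.03 on the minimum of 8 other arrays. The SH3-domain gene bzz1 (SPBC12C2.05c) was the only gene with 2 members: intron 5 read 1.38 and 1.07, against -0.49 to 1.26 on 11 other arrays, and intron 6 read 1.07 and 1.76, against -0.59 to 0.85 on 8. The WD-repeat gene wdr7 (SPBC16H5.13) read 2.74 and 2.88 at intron 2, against -0.15 to 1.62 with a median of 0.08 on 12, which completes the 16 introns with the widest gaps.

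The remaining introns with both Δpwi1 values above every other array are named so that every member is accounted for. They were mis18_intron2, in a gene of centromeric histone loading, at 1.77 and 1.55; rgf2_intron2, in a gene of a Rho1 exchange factor, at 1.68 and 1.87; and rpb9_intron3, in an RNA polymerase II subunit gene, at 1.81 and 1.42. With them stood sac3_intron3, in an mRNA export gene, at 2.25 and 1.59, and ers1_intron7, in a gene of RNAi-directed silencing, at 2.42 and 1.28. The highest reading of another strain was 0.49 for mis18 on 9 arrays, none of them labelled smd3. It was 0.47 for rgf2 on 15, 1.01 for rpb9 on 14, 0.96 for sac3 on 13 and 0.74 for ers1 on 12.

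The introns near the threshold were often high elsewhere. Etp1_intron1 (SPAC22E12.10c) read 1.63 and 1.45 in Δpwi1, against -0.91 to 2.34 on 18 other arrays, and mdm35_intron1 (SPBC119.18), in a gene of a mitochondrial intermembrane space protein, read 1.04 and 1.35, against -0.89 to 2.70 on 17. Each of these was at 1.0 or more on 6 other arrays. Ptk1_intron2 (SPBC4B4.01c), at 1.16 and 1.02, was at 1.0 or more on 7 of 18 other arrays. Pgp1_intron2 (SPCC1259.10) read 1.01 and 1.10, pnu1_intron1 (SPAC17C9.08), in a mitochondrial endonuclease gene, 1.03 and 1.23, and rev7_intron5 (SPBC12D12.09), in a gene of DNA polymerase zeta, 1.05 and 1.06. The Δpwi1 readings of all 6 lay within the range of other strains. The probes of etp1 and rev7 carry a name prefix, n, whose meaning the sources do not state.

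The last 11 introns completed the 43. Intron 3 of rpb1, the largest RNA polymerase II subunit, read 2.63 and 1.32, and intron 2 of mtq2, a methyltransferase acting on the translation release factor, read 2.15 and 1.42. Those of trt1 (intron 13), the telomerase reverse transcriptase, tif222 (intron 2), a subunit of eIF2B, and fcp1 (intron 1), the phosphatase of the polymerase II tail, read 1.77 and 1.48, 1.61 and 1.45, and 1.32 and 1.36. Ckn1_intron2 read 1.36 and 1.25, ptp4_intron1 1.41 and 1.09, and pbn1_intron2 1.15 and 1.16. Myr1_intron1 read 1.12 and 1.22, mpg2_intron2 1.15 and 1.09, and tma23_intron1 1.07 and 1.03. Each of these had at least 1 other array at 1.0 or more and overlapped with it.

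Such introns could be called selectively retained in Δpwi1, but the arrays labelled smd3 go against that name. On them the introns measured, 34 and 39 of the 43, had a median ratio of 0.996 and 1.56. Over those of the 1548 introns measured there, 1302 and 1460, it was 1.06 and 1.15. Of the 31 introns with both smd3 values, 15 (48.4%) were at 1.0 or more on both, against 39% of all 1842 introns with both, and 10 had a higher mean there than in Δpwi1. On the other side, 6 were under 0.5 on both smd3 arrays. For the counts of 10 and 6 no share over all introns was computed, so they are not set against the general level. Among the other strains, the highest mean was that of smd3 for 30 of the 43 introns, ctr1 for 4, and SPAC20H4.06c and aar2 for 2 each. Since the rule limits only the median, a strain with 2 of 18 arrays can stay high in it.

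Among the 22 introns above every other array, the median of the smd3 means was 0.71 and 7 were at 1.0 or more, of 21 measured on at least 1 smd3 array. Among the 21 that overlapped it was 1.99, with 17 at 1.0 or more and 13 above the Δpwi1 mean. The smd3 values helped to set this division, so it is a description of where the overlap lay. No other strain with a value had a mean of 1.0 or more for 16 introns. They were those of ecm14, atg3, irc3, icp55, twf1, mcl1, sme1, pca1, mis18, rgf2, rpb9, sac3, ers1, pgp1 and both of bzz1. Of these, mis18_intron2 had no smd3 value, and twf1_intron5, sac3_intron3 and bzz1_intron6 had a value on smd3 replicate 1 only. A strain mean can thus rest on 1 array or be missing.

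In the other strains with a pair of arrays, the median over the introns of the mean ratio was 0.37 for SPAC18G6.13, 0.66 for SPAC20H4.06c, 0.33 for aar2, 0.37 for ctr1, 0.13 for ppn1 and 0.14 for ssu72. Over all introns also measured in Δpwi1, the same strains had 0.50, 0.55, 0.45, 0.60, 0.44 and 0.26. The 43 introns thus lay below the general level of their array in 5 of these 6 strains, as a rule with an upper limit on the median would give. On ctr1 replicate 1 the 35 members measured had a median of 0.74, below the 1.08 over all 1258 comparison introns measured there. Of these 35, 15 were at 1.0 or more. On ctr1 replicate 2 the median was 0.05, against 0.11, and none of 38 was at 1.0 or more. Leaving out the smd3 arrays, 50 of 524 values of other strains were at 1.0 or more. The same share over all introns was not counted.

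Counted by strain, 7 of 31 of these introns were at 1.0 or more on both SPAC18G6.13 arrays, against 20.2% of all introns measured there, so this strain too was near its general share. In SPAC20H4.06c it was 1 of 17, against 10.5%, and in aar2 1 of 41, against 4.82%. None was at 1.0 or more on both arrays of ctr1 (0 of 31, against 1.55%), ppn1 (0 of 22, against 9.11%) or ssu72 (0 of 24, against 1.63%). The single arrays likewise had none, with 0 of 43 for SPCC162.01c (1.96% of all), 0 of 34 for ash2 (2.64%), 0 of 30 for swd1 (6.82%) and 0 of 11 for pht1 (12.4%). Since a low median was required, these low counts follow in part from the rule.

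**Figure D2:**
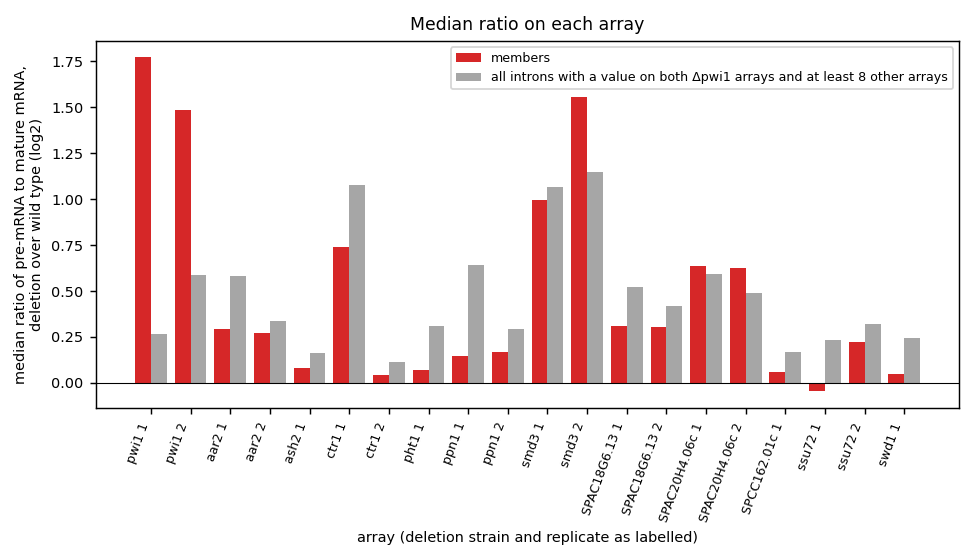
Median ratio of pre-mRNA to mature mRNA (log2, deletion over wild type) of the 43 introns (red) and of the 1548 introns with both Δpwi1 values and at least 8 others (grey) on each of the 20 arrays, Δpwi1 first. The red bar is far above the grey one on both Δpwi1 arrays, at 1.77 and 1.48, and it is also the higher one on smd3 replicate 2, at 1.56, and by less on both SPAC20H4.06c arrays, at 0.63 each.

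The same rule with another strain in the place of pwi1 gave from 0 to 323 introns. It took none for ctr1 (0%), 5 for ssu72 (0.382%), 5 for ppn1 (0.447%), 9 for aar2 (0.438%), 25 for SPAC20H4.06c (2.92%), 79 for SPAC18G6.13 (5.23%) and 323 for smd3 (19.9%). The share in Δpwi1 was close to that of SPAC20H4.06c, so the number of introns alone does not set Δpwi1 apart.

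In Δpwi1 the intron probes carried more of the ratio than the junction probes. Pre-mRNA of the 43 introns had a median of 1.56 on replicate 1 and 1.37 on replicate 2, against 0.21 and 0.45 over all 1629. Mature mRNA had a median of -0.50 and -0.32, against -0.07 and -0.12. The intron probe was above 0 on both arrays for 42 of 43 (66% of all) and at 1.0 or more for 27 (6.02%). The junction probe was below 0 on both for 34 (44.8%) and at -1.0 or less for 2 (0.859%), icp55_intron3 and ckn1_intron2. The intron value was the larger in size for 36 of 43, against 66.9% of all introns and 114 of the 137 with a higher median in other strains.

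The balance of both probes differed between introns. In atg3_intron2 the intron probe read 3.74 and 3.80 and the junction probe -0.15 and 0.28, and in twf1_intron5 they read 3.37 and 2.98, and -0.12 and 0.12. In these introns the junction probe stayed near 0 relative to wild type, and the ratio lay in the intron probe. Within each gene, the mean of the member junction was still below the median of the other junctions. The difference was -1.34 in atg3, whose total mRNA was raised, and -0.48 in twf1. In icp55_intron3 the intron probe read 1.27 and 1.60 and the junction probe -2.11 and -2.07. A mean intron value under 0.5 was found for 4 introns, whose ratio therefore came mainly from a low junction probe, with a smaller part or none from the intron probe. Ckn1_intron2 was the extreme, with -0.05 and 0.07 on the intron probe and -1.41 and -1.18 on the junction probe. The others were etp1_intron1, with 0.24 and 0.47 against -1.39 and -0.98, rev7_intron5, with 0.30 and 0.37 against -0.76 and -0.69, and mdm35_intron1, with 0.39 and 0.26 against -0.65 and -1.09.

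**Figure D3:**
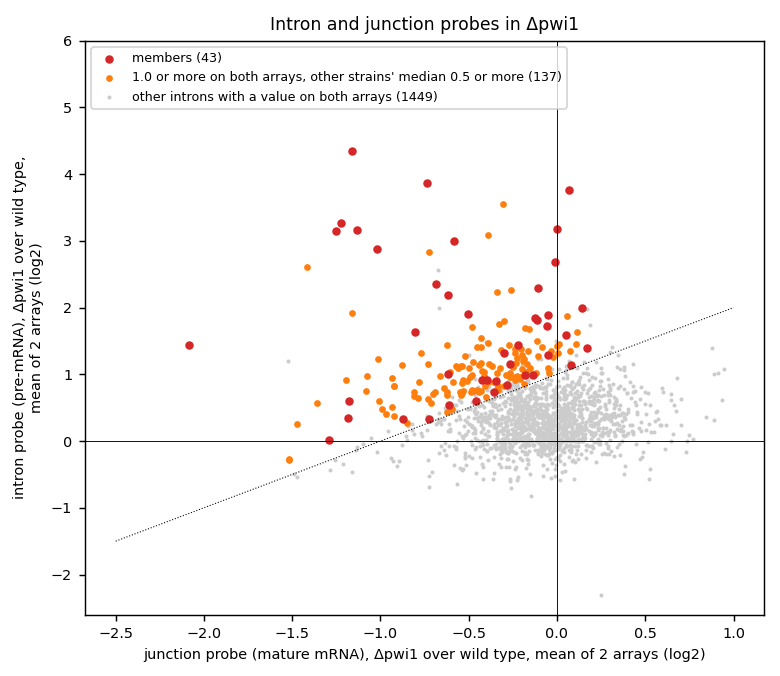
Mean intron probe value (vertical, log2) against mean junction probe value (horizontal, log2) in Δpwi1 over wild type, for the 43 introns (red), the 137 introns at 1.0 or more in Δpwi1 with a median of 0.5 or more in other strains (orange) and all others with both values (grey, which hold the 10 introns with fewer than 8 other values); the dotted line marks a ratio of 1.0. Red points reach 4.35 on the intron probe and -2.09 on the junction probe.

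In Δpwi1 the 43 introns had a median mean ratio of 1.78, against 1.43 for the 137 introns that were high in other strains too. Their intron probes had a median of 1.44 and those of the 137 had 1.02, while the junction probes had -0.40 in the 43 and -0.43 in the 137. At the upper end, the third quartile of the mean ratio was 2.93 in the 43 and 1.67 in the 137. On the smd3 arrays the 137 had a median of 1.91 and 2.42, higher than on the Δpwi1 arrays.

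The other introns of the same genes had ratios near the general level. The 42 genes held 124 further introns with both probes, and 51 of them, in 28 genes, had both Δpwi1 values. Of these 51, 4 were at 1.0 or more on both arrays, beside 11.7% of all introns, and 13 were at 0.5 or more, beside 32.5%. Their median was 0.26, beside 0.41 over all introns, and of the 26 next to a member 1 was at 1.0 or more. The rest lacked a value on at least 1 array, so the other introns of these genes were seen in part only.

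In irc3, 4 of 5 introns had both values. Intron 3 read 4.33 and 3.46, while intron 1 read -0.06 and -0.20, intron 2 -1.27 and -0.53, and intron 4 -0.40 and -0.09. Its junction 3 read -1.29 and -0.74, whereas junctions 1, 2, 4 and 5 all read above 0, from 0.16 to 0.78. In tfa1, intron 2 read -1.10 and -0.19 beside intron 1 at 4.17 and 2.99, and in mcl1, intron 2 read -0.58 and -0.52 beside intron 1 at 2.63 and 2.18. Both neighbours lay on the opposite side of 0 from the member.

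The junction probes had more values inside these genes, but the member junction is part of the ratio that chose the introns, so what follows is a description. The member junction was below the median of the gene's other junctions in 35 of 39 genes, with a median difference of -0.40, against 54.1% of all introns in genes with another junction. In ecm14 the member junction averaged -1.16 and the other 3 had a median of 0.58. In icp55 it averaged -2.09 and the other 8 had a median of -0.22, and in gup1 it averaged -1.25 against 0.12. Pca1 had all of its 4 other junctions above the member junction, at 0.37 to 0.93 on single arrays against -0.50 and 0.48. In chk1 the junction of the last intron read -1.14 and -0.47, against -0.40 to 0.34 for single readings of the 5 others.

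**Figure D4:**
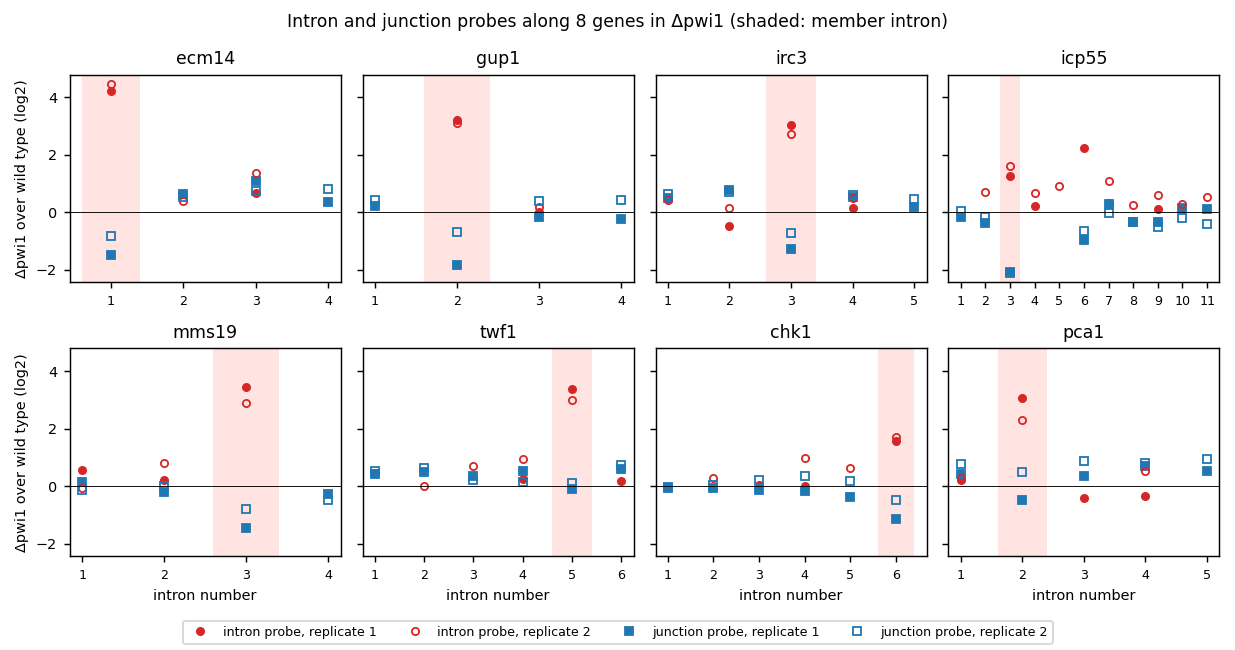
Intron probe (red circles) and junction probe (blue squares) values in Δpwi1 over wild type (log2) along the 8 genes with 4 or more introns among the 16 widest gaps, replicate 1 filled and replicate 2 open, with the member intron shaded; probes without a value are left out. Red and blue points part at the shaded intron, to 4.46 and -1.49 in ecm14, and lie closer together at the others apart from icp55 intron 6.

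Some of the genes had further introns with a high ratio. Ckn1 had introns 4 and 5 at 1.78 and 1.18 and at 1.98 and 1.86 beside intron 2 at 1.36 and 1.25, and its 4 other junctions had a median of -1.10. Intron 1 of sac3 read 2.06 and 2.44 beside intron 3 at 2.25 and 1.59, and intron 2 of tma23 read 1.05 and 1.51 beside intron 1 at 1.07 and 1.03. These are the 4 further introns at 1.0 or more. In icp55, intron 6 read 3.19 on replicate 1 and had no value on replicate 2. Mtq2_intron1 read 1.47 and 0.96, with a junction at -1.08 and -0.66, just under the threshold on replicate 2.

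The median total mRNA of the member genes differed little from wild type, although some of the genes were raised. Exon probes of the 42 genes had a median of 0.15 and 0.14 on the Δpwi1 arrays, against 0.00 and -0.01 over all 1124 genes with a measured intron. Atg3 was the highest, at 2.07 and 1.97 against -0.30 to 0.61 in other strains, and it was the only member gene at 1.0 or more on both arrays (0.212% of all exon probes). Its junction 2, at the member intron, averaged 0.07 and its junction 1 averaged 1.41. With a limit of 0.3, chosen after the values were seen, 9 of the 42 genes were above on both arrays, against 4.67% of all genes with a measured intron. These were ecm14, SPBC21B10.09, atg3, tfa1, wdr7, pca1, ubp9, rgf2 and ers1.

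Ers1 had the highest exon readings after atg3 by mean, at 0.78 and 1.13 against -0.10 to 0.80 in other strains, and its junction 7 averaged 0.14, against a median of 0.97 over its 7 other junctions. In ecm14 the exon probe read 0.89 and 0.49, against -0.58 to 0.60, and in tfa1 0.68 and 0.48, against -0.42 to 0.24. Where total mRNA was above wild type in these genes, the junctions away from the member intron were above 0 too. At the low end were mdm35, at -0.61 and -0.92 against -1.22 to 0.39 in other strains, and rev7, at -0.30 and -0.97 against -1.07 to 0.36. Both lay within the range of other strains, and both were among the introns whose ratio came mainly from the junction probe.

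Position in the gene was not used by the rule. Of the 43 introns, 20 (46.5%) were internal, 11 (25.6%) were first introns, 10 (23.3%) were last introns and 2 (4.65%) were the sole intron of their gene. Over the 1629 introns the shares were 26.5%, 23.4%, 27.3% and 22.8%, and over the 137 introns high in other strains too they were 28.5%, 21.2%, 32.1% and 18.2%. Internal introns were thus more common and sole introns less common among the 43, with a median of 3 introns per gene in each set. No test was made, because introns of 1 gene share a transcript.

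Some junction probes join exons that are not adjacent and so report exon skipping. Of these, 15 spanned 13 members, and 9 had both Δpwi1 values, 4 of them above 0 on both, against 11.6% of the 250 skipping probes with both values, and 4 below 0 on both. The probe joining exons 6 and 8 of ers1, across intron 7, read 0.35 and 0.77 in Δpwi1, against -0.89 to 0.33 on 13 other arrays. It was also in a gene whose total mRNA was high. The others above 0 were 2 probes of rpb1 and 1 of pgp1, which lay within the range of other strains.

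The members were also counted in 6 gene lists by function, which were chosen with earlier results of these data known. The list of DNA repair and checkpoint genes held 3 members, chk1, cds1 and rev7, among 37 introns that could meet the rule (8.11%), and 8 of 39 introns were at 1.0 or more (20.5%). Splicing factors held 2 members, sme1 and cyp1, of 34 (5.88%), and the secretory pathway 2, wbp1 and bet3, of 53 (3.77%). Autophagy held 1, atg3, of 16 (6.25%). Ribosomal proteins, with 37 introns, and mitochondrial ribosomal proteins, with 9, held none, although 4 of 38 (10.5%) and 3 of 9 (33.3%) were at 1.0 or more in Δpwi1. Beside the 2.78% of all introns these shares rest on 0 to 3 introns each.

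Some introns lay just outside the rule. Vma1_intron2 (SPAC343.05), in a subunit of the vacuolar ATPase, read 2.14 and 0.98, ipi1_intron1 0.97 and 1.08, and nse4_intron2 0.97 and 1.03, beside pgp1_intron2, ptk1_intron2 and pnu1_intron1 just inside. At the limit on other strains, mms19_intron3, etp1_intron1 and mdm35_intron1 had medians of 0.48, 0.48 and 0.47. Dsh1_intron3, ank1_intron1 and ssl3_intron2 were just outside at 0.50, 0.50 and 0.52. Of these, ssl3_intron2 (SPAC1687.18c), in a gene of cohesin loading, read 3.05 and 2.09 in Δpwi1. Among introns with fewer than 8 other values, dca7_intron4 (SPBC17D11.08) read 3.53 and 2.94 with a median of -0.04 on 4 other arrays, and rrp17_intron1, mis4_intron1, cut1_intron3 and alp41_intron2 were left out likewise. Bzz1_intron6, twf1_intron5 and rev7_intron5 had exactly 8.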

How the data were processed

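Two-colour splicing arrays compared RNA of each deletion strain (Cy3) with wild-type RNA (Cy5). For each probe and array, the authors deposited a log2 value of the deletion strain relative to wild type. The scale is that of the study's plots, and low readings of most deleted genes gave the direction. How the arrays were scanned, background-corrected and normalized, and why some cells are empty, the sources used here do not say; the centring is thus unknown. The deposited text table and value table held the same values in all 304160 cells compared. The 536 control spots were left out, and empty values stayed missing.

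Probe names gave gene, feature and number. The ratio was intron minus junction probe within an array, computed with pandas 2.3.3 and numpy 2.4.6 in Python 3.11.15, with the selection tested on simulated data. Of 2303 genes with such introns, 2200 matched a RefSeq gene table (ASM294v3) used for symbols only. The number of arrays limits the precision.

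The introns and gene lists were chosen with earlier results of these data known. Introns described singly were the 16 with the widest gap between the lower Δpwi1 value and the median of the others, those in listed genes or in genes with several members, and the 3 nearest to each side of a threshold. The other 16 members were named to account for all. Since all arrays entered the rule, no test was made. Intron lengths, splice sites and sequences were not analysed here. Alternatives were other thresholds, centring, strain means, the intron probe alone and leaving out arrays.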

Additional observations from a re-analysis of the deposited data

Results flagged for a closer look

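Some of the introns described singly were below 0 on both arrays of another strain while above 1.0 on both Δpwi1 arrays. These readings are given as means of 2 arrays, and the differences were not tested. Because the rule asked for a low median in other strains, readings below 0 there follow in part from it. Their share over all introns was not counted, and some of them lay close to 0. Ecm14_intron1 averaged -0.32 on the SPAC18G6.13 arrays, -0.062 on ppn1 and -0.20 on smd3, and atg3_intron2 averaged -0.18 on SPAC18G6.13 and -0.024 on aar2. On aar2, irc3_intron3 averaged -0.18, wbp1_intron1 -0.32 and pca1_intron2 -0.38. Icp55_intron3 averaged -0.55 on ppn1 and mcl1_intron1 -0.20 on ctr1. Chk1_intron6 had the lowest of these means, -1.52 on SPAC18G6.13, where bzz1_intron5 averaged -0.21.

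Among introns near the threshold, etp1_intron1 averaged -0.46 on ppn1 and -0.75 on ssu72, and mdm35_intron1 -0.077 and -0.76 on the same strains. On ssu72, pgp1_intron2 averaged -1.19, ptk1_intron2 -0.30 and pnu1_intron1 -0.27.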

How the results depend on the processing

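The 43 introns numbered 87 with a ratio threshold of 0.75 and 20 with 1.5. They were 24 and 86 with the median of the others under 0.25 and 0.75, and 23 with at least 14 other arrays measured. When every measured mean of another strain also had to be under 1.0, they were 16. Without 1 Δpwi1 array the count was 80 to 82, since 1 array then had to reach 1.0. In 26 of 34 alternatives it was within 1.5 times of 43, from 37 to 50 without 1 array of another strain (at least 36 of the 43 kept). It was 36 with ratios centred on each array's median (20 kept), 34 with the intron probe alone (23 kept), 41 without the 6 arrays whose deleted gene was not low (27 kept), and 56 without the smd3 arrays (38 kept), an alternative chosen after seeing the data. So the list depends on the centring and on the other strains taken.

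The median ratio was 1.48 to 1.77 without 1 Δpwi1 array. Median total mRNA was 0.13 with exon probes centred and 0.14 to 0.15 without 1 Δpwi1 array, against 0.11. Other introns of the same genes numbered 13 at 0.5 or more, and 7 to 8 at 1.0 or more without 1 array. With a threshold of 1.5 the same rule gave 0 introns for aar2, ppn1 and ssu72, 9 for SPAC20H4.06c, 20 for SPAC18G6.13 and 142 for smd3. On 1 array of a strain it gave 4 to 334 for ctr1, 15 to 159 for aar2, 14 to 98 for ppn1, 32 to 45 for ssu72, 59 to 61 for SPAC20H4.06c, 109 to 160 for SPAC18G6.13 and 496 to 519 for smd3, so 1 array decides the counts of ctr1, aar2 and ppn1. No paired analysis was possible because no result comes from a test.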
